A study of Mus musculus with 6 samples.

Results

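The 10 genes described here encode the ligand TGF-beta1 (Tgfb1), its receptors (Tgfbr1 and Tgfbr2) and 7 Smad proteins (Smad1 to Smad7). Smad proteins carry the signal to the nucleus or, as inhibitory Smads, limit it. The 10 genes were chosen by name. Their data are the segments of a chromatin-state map that overlap each gene's RefSeq record (GRCm38.p6, the assembly of mm10) with 20 kb added on each side, called the gene's locus below. These loci held 599 of the 850831 segments of the map (0.0704%) and 1016.3 kb of its 2726.83 Mb (0.0373%). All 10 genes were found, among 21779 protein-coding genes placed on the map.

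The study profiled histone variant H3.3, which the chaperone HIRA deposits, by ChIP-seq in hematopoietic stem cells (HSCs) from bone marrow of adult C57BL/6 mice. The labels give 2 H3.3 libraries and 1 input for the genotype WT, and as many for the genotype HIRA KO. Deletion of Hira in the blood system was conditional. Per the protocols, which are worded alike for every library, poly(I:C) was injected intraperitoneally in 2 doses, 20 ug each, and the cells were collected 7 days after the first injection. WT and HIRA KO libraries thus share this protocol as written. The labels give no exact age, no driver of the deletion and no sorting gate. The file analysed is a single genome map into 18 states in bins of 200 bp, and its file name alone ties it to WT HSCs and H3.3. It holds a state number per segment, with no read count, no replicate and no knockout value. Depth is therefore unknown, no spread between animals can be given, and every comparison below is a description without a test. No comparison of WT with HIRA KO was made here.

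TGF-beta1 binds the type II receptor Tgfbr2, which activates the type I receptor Tgfbr1. The receptors then phosphorylate Smad2 and Smad3, while receptors for bone morphogenetic proteins (BMPs) act through Smad1 and Smad5. Smad4 is the shared partner of both branches, and Smad6 and Smad7 are inhibitory Smads that limit the signal. In bone marrow, TGF-beta is known for holding HSCs in quiescence.

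The states have numbers and no names, so they are described here by where they lay. States 3 to 6 covered 1.13% of the map and held the start of 10738 of 21779 protein-coding genes (49.3%). The start was the most upstream one that the RefSeq promoter table gives, or, for the 4287 genes without one, either end of the gene record. States 9 to 11 held the start of 20.1% of genes, state 18 of 17.9%, states 7 and 8 of 1.14%, and the other states of 11.6%. State 18 covered 55.0% of the map. The table gives 8797 starts in states 3 to 6 (50.3% of its 17492 genes). Around these, states 7 and 8 were commoner downstream than upstream. Their share was 35.2% of starts at 6.0 kb downstream and 15.8% at 6.0 kb upstream. At the start itself it was 0.0% because the starts were chosen by their state. Of the borders of state 1, 58.4% were with state 16, and of those of state 2, 49.4% were with state 17. Of the marker genes, 10 of 10 HSC markers, among them Procr, Mecom and Fgd5, had a start in states 3 to 6. None of 12 markers of mature blood cells (0) and none of 10 markers of tissues outside blood (0) did. The marker lists and the grouping of states were chosen with earlier results of this map known. The split is therefore no independent check of the label.

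The promoter table held 7 of the 10 genes. Smad2, Smad4 and Smad7 had no entry. The 250 bases before the start are shown for 4 genes whose start regions differed in the map: Tgfb1 and Smad3, with long stretches of states 3 to 6, Tgfbr2, whose stretch was mostly states 4 and 6, and Smad6, whose stretch ended in state 9. The sequences are from RefSeq (GRCm38.p6), 5′ to 3′ on the gene's strand. Capitals mark GC boxes, searched as GGGCGG on both strands.
Tgfb1, chr7:25686752-25687001, plus strand: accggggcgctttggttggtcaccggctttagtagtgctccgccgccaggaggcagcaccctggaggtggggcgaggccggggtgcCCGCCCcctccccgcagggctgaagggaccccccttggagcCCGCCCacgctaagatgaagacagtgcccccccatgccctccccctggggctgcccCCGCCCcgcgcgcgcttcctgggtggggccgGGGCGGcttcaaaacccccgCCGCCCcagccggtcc
Tgfbr2, chr9:116175364-116175613, minus strand: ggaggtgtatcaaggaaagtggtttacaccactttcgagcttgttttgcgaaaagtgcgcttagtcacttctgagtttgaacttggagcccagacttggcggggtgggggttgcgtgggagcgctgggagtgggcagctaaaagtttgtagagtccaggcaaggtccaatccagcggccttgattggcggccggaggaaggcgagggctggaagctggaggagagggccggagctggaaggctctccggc
Smad3, chr9:63757995-63758244, minus strand: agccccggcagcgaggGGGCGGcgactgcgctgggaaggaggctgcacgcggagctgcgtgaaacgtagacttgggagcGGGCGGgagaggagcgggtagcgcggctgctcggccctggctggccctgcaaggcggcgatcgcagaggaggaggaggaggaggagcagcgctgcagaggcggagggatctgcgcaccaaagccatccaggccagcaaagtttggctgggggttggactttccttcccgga
Smad6, chr9:64022060-64022309, minus strand: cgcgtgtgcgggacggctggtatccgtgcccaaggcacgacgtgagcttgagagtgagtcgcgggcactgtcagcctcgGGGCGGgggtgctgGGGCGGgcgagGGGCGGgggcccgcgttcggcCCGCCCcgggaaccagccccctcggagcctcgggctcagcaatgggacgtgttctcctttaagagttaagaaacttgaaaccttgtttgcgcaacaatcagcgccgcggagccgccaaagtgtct
Tgfb1 had 5 GC boxes in these 250 bases, Smad6 had 4, Smad3 had 2 and Tgfbr2 had 0. Of the 3 promoters not shown, Tgfbr1 had 2, and Smad1 and Smad5 had 1 each. A GC box was thus present in 6 of 7 genes (85.7%), against 42.7% of 17486 promoters of the same length and 62.9% of those with a start in states 3 to 6. The same bases were searched on both strands for 3 other motifs. CAGAC, the core of Smad binding elements, was in 1 of 7 (14.3%, Tgfbr2), against 41.0% of all promoters and 40.4% of those with a start in states 3 to 6. GGCGCC, a GC-rich motif of BMP-branch Smads, was in 1 of 7 (14.3%, Tgfbr1), against 12.1% and 17.4%. CCAAT was in 4 of 7 (57.1%; Tgfbr1, Tgfbr2, Smad1 and Smad5), against 36.5% and 37.6%. A match is a match of letters and shows no bound factor. The number of CG dinucleotides was 12 in Tgfbr2, 21 in Tgfb1, 22 in Smad3, 22 in Smad5, 25 in Smad1, 27 in Smad6 and 29 in Tgfbr1. The median of the 7 was 22, against 17 for promoters with a start in states 3 to 6 and 10 for all promoters. Tgfbr2 had the fewest CG dinucleotides and was the only one of the 7 without a GC box.

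All 10 genes had a start in states 3 to 6, against 49.3% of all protein-coding genes. The 7 with a start in the promoter table all had it there, against 50.3% of genes in that table. For Smad2, Smad4 and Smad7, exactly 1 end of the record lay in states 3 to 6, and distances below are measured from that end. That end was chosen by its state, so its position in states 3 to 6 is no finding. The start lay in state 4 in Tgfbr1, Tgfbr2, Smad3 and Smad6, in state 6 in Tgfb1, Smad5 and Smad7, and in state 5 in Smad1, Smad2 and Smad4. No start lay in state 3. The other end of the record lay in state 7 in Tgfb1, in state 8 in Smad1, Smad6 and Smad7, in state 16 in Tgfbr2 and Smad4, and in state 17 in Tgfbr1, Smad2, Smad3 and Smad5.

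**Figure D1:**
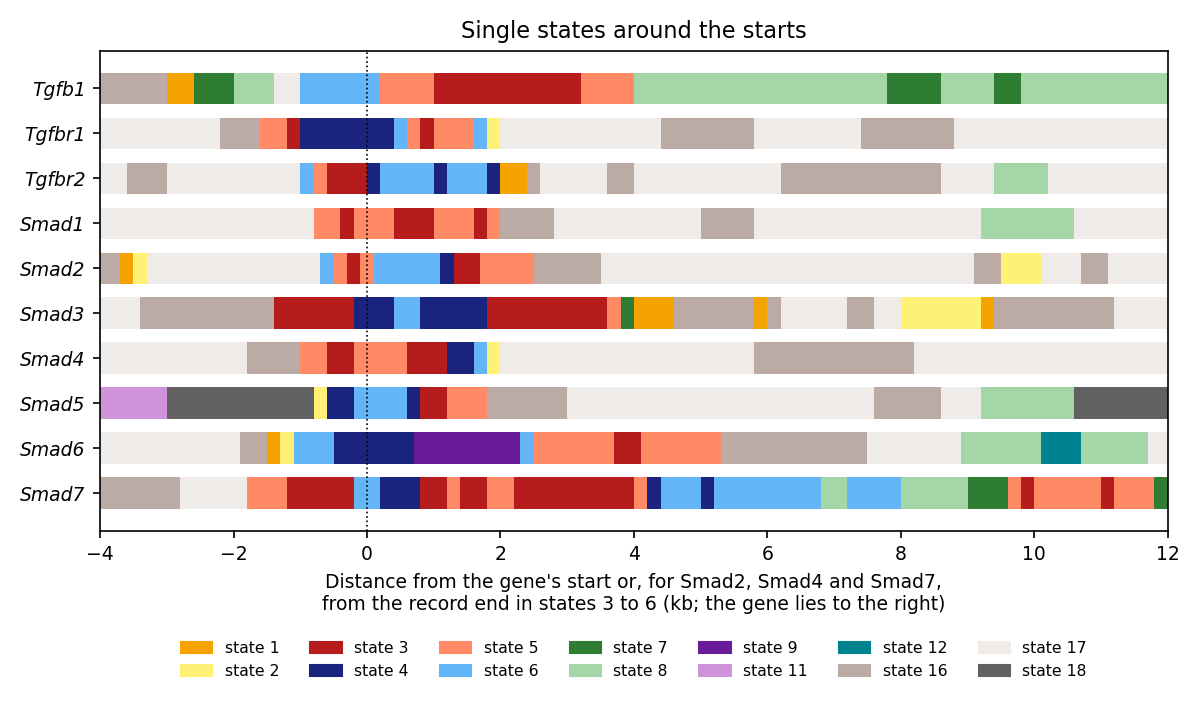
Single states from 4 kb before to 12 kb after the start (x axis, kb, the gene to the right) for each of the 10 genes (rows), with colours for states. All rows are in states 3 to 6 at 0; the stretch is longest in Smad7, at 8.6 kb, and in Smad6 it gives way to state 9 at 0.7 kb.

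The unbroken stretch of states 3 to 6 at the start, called the start run below, was long in several of these genes. It measured 8.6 kb in Smad7, 5.2 kb in Smad3, 5.0 kb in Tgfb1, 3.4 kb in Tgfbr1, 3.2 kb in Smad2, 3.0 kb in Tgfbr2, 2.8 kb in Smad1 and in Smad4, 2.4 kb in Smad5 and 1.8 kb in Smad6. The median was 3.1 kb, against 2.4 kb over the 10738 genes with a start run, whose middle 50% of values ran from 1.8 to 2.8 kb. A start run of at least 3 kb was seen in 6 of the 10 genes and in 23.6% of genes with one. Smad7 stood at percentile 99.8 of these genes, Smad3 at percentile 97.9, Tgfb1 at percentile 97.4, Smad5 at percentile 49.6 and Smad6 at percentile 16.1. The runs of Tgfb1, Tgfbr1, Tgfbr2, Smad4 and Smad7 also overlapped another gene or lncRNA record, as given for each below.

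The start runs reached further into the gene than upstream of it in 6 of the 7 genes with a table start, against 78.5% of the genes in the table with a start run. Their median reach was 1.04 kb upstream and 1.96 kb downstream, against 0.886 and 1.34 kb. At 3.0 kb downstream of the start, 42.9% of the 7 genes were in states 3 to 6, against 4.7% of the 8797 genes. The 3 genes were Tgfb1, Smad3 and Smad6, the last of them in a separate stretch beyond state 9.

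Across the map, 61.2% of the borders of state 3 were with state 5, and 62.6% of those of state 4 were with state 6. A state of each pair was present in the start runs of 8 of the 10 genes, against 65.7% of genes with a start run. The exceptions differed from each other. The run of Smad1 held states 3 and 5 only, and that of Smad6 states 4 and 6 only. States 4 and 6 made up 73.3% of the run in Tgfbr2, 58.3% in Smad5, 52.9% in Tgfbr1, 43.8% in Smad2, 41.9% in Smad7, 38.5% in Smad3, 24.0% in Tgfb1 and 21.4% in Smad4. Among all genes with a start run, 17.6% held neither state 4 nor 6 and 16.7% held only these.

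Tgfb1, the ligand gene, lay on chromosome 7 from 25687002 to 25705077 on the plus strand. It was the shortest of the 10 at 18.1 kb and lay among 5 protein-coding neighbours within 20 kb (Exosc5, Tmem91, B9d2, Ccdc97 and Hnrnpul1). Its start run went from -1.0 to 4.0 kb, with state 6 over the start, then states 5, 3 and 5. Upstream it reached into the end of the B9d2 record. From 4.0 kb onward the gene was in states 7 and 8 except for a state 12 segment from 14.4 to 15.6 kb. States 7 and 8 took up 90.8% of its body beyond 5 kb of the start, the highest of the 10. States 3 to 6 covered 16.2% of its locus and states 7 and 8 covered 47.0%. The neighbours contributed to both. A stretch of states 3 to 6 from -7.2 to -5.0 kb lay at the start of B9d2, and another from 30.6 to 32.8 kb at the start of Ccdc97. A block of states 9 to 11 from -15.0 to -10.4 kb lay within 1 kb of the start of Tmem91, which was itself in state 9. A state 1 segment of 1.2 kb lay just past the 3′ end, from 19.4 to 20.6 kb, away from other protein-coding records.

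Tgfbr1, the type I receptor gene, lay on chromosome 4 from 47353222 to 47414926 on the plus strand, with no protein-coding neighbour within 20 kb. Its start run from -1.6 to 1.8 kb was built of 8 segments, with state 4 over the start. The promoter table gives a further start 32.99 kb downstream, and that one lay in state 8, within the gene body. States 16 and 17 covered 72.7% of the locus, percentile 95.8 of all protein-coding genes. Inside the gene lay a block of states 10 and 11 from 19.2 to 22.0 kb, with state 18 on both sides, from 17.4 to 19.2 and from 22.0 to 26.0 kb. A lncRNA record, Gm32435, runs from -0.9 to 32.9 kb across the start, so the start run overlapped both records.

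Tgfbr2, the type II receptor gene, lay on chromosome 9 from 116087695 to 116175363 on the minus strand. Its start run went from -1.0 to 2.0 kb and passed directly into a state 1 segment from 2.0 to 2.4 kb. An end of the lncRNA record Gm40582 lay in the run at -0.3 kb. States 1 and 2 recurred through the gene. The locus held 7 state 1 and 7 state 2 segments covering 8.6 kb (6.74%, percentile 97.0 of all genes), with 6.6 kb of this inside the gene record. The longest state 1 stretch inside the gene ran from 28.4 to 30.8 kb, and an end of the lncRNA record Gm31292 lay in it. State 18 made up 0.783% of the locus and states 9 to 11 made up 0.0%. Gadl1, a protein-coding neighbour beyond the 3′ end, had its start in state 18. In both receptor genes states 16 and 17 took up most of the body beyond 5 kb of the start, at 58.0% in Tgfbr1 and 53.8% in Tgfbr2. Over the locus, flanks included, they took up 72.7% and 63.5%. The loci differed in states 1 and 2, at 0.983% and 6.74%.

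Smad3, which acts in the TGF-beta branch, had the longest record of the 10 (111.2 kb, chromosome 9, 63646766 to 63757994, minus strand). Its start run from -1.4 to 3.8 kb had states 4 and 6 over and after the start, between stretches of state 3, and ended in 0.2 kb of state 5. States 1 and 2 covered 8.4 kb of its locus (5.55%, percentile 95.6), all of it inside the gene record and within 52.2 kb of the start. The longest of these stretches lay from 18.6 to 20.8 kb, from 31.2 to 33.2 kb, from 8.0 to 9.4 kb and from 50.8 to 52.2 kb. An end of the lncRNA record Gm51710 lay in the first of these, at 19.6 kb. Beyond 52.2 kb the gene was in states 8, 16 and 17, with its longest state 8 segment from 101.0 to 109.6 kb. States 9 to 11 were at 0.0%. Aagab, whose record lies within 20 kb of the 3′ end of Smad3, had its start in state 4.

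Smad2, the other TGF-beta branch Smad, lay on chromosome 18 from 76241090 to 76311748. The run of states 3 to 6 at its lower end went from -0.7 to 2.5 kb. States 1 and 2 covered 1.4 kb of the locus (1.27%), compared with 8.4 kb in Smad3. State 18 covered 18.1% of the locus, including a stretch from 71.1 to 85.9 kb beyond the other end of the record, and state 11 followed from 85.9 kb. A separate stretch of states 3 to 6 of 0.8 kb lay from -18.7 to -17.9 kb, within 1 kb of an end of the lncRNA record Gm52360 and of the pseudogene Gm9028. The 2 genes thus had similar shares of states 3 to 6 (3.61% in Smad2 and 3.44% in Smad3) and unlike shares of states 1 and 2 and of state 18 (5.82% in Smad3).

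Smad1 and Smad5 act in the BMP branch. Smad1 lay on chromosome 8 from 79338395 to 79399428 on the minus strand. Its start run from -0.8 to 2.0 kb alternated between states 5 and 3 in 7 segments. Smad1 also held 2 stretches of states 3 to 6 inside the gene, of 1.2 kb ending at 15.2 kb and of 1.6 kb ending at 29.2 kb, with no other protein-coding start and no end of a noncoding record within 1 kb. A state 1 stretch from 23.4 to 25.0 kb lay between them. Upstream the locus passed through states 17 and 16 into state 18 at -6.8 kb, which, but for 1.4 kb of state 15, reached past the edge of the locus.

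Smad5 lay on chromosome 13 from 56703010 to 56742378 on the plus strand. Its 3 table starts, within 658 bases, lay in states 6, 6 and 4. Its start run from -0.6 to 1.8 kb was bordered upstream by 1 bin of state 2 and then by state 18. The flanks of Smad5 held more of states 9 to 11 than any other of the 10 loci. These states covered 19.2 kb, or 24.2% of the locus (percentile 82.1 of all genes), in blocks, the outermost cut by the edges of the locus, from -20.4 to -16.2, -5.6 to -3.0, 44.8 to 55.0 and 56.8 to 59.8 kb. The longest lay over Gm45623, a protein-coding record with its start in state 11. None of these blocks lay in the gene record itself, whose body beyond 5 kb was 52.4% in states 7 and 8. In Smad1 states 9 to 11 covered 0.6% of the locus, at its far edge.

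Smad4, the common partner, lay on chromosome 18 from 73634790 to 73703791. The run of states 3 to 6 at its upper end went from -1.0 to 1.8 kb, mostly in states 3 and 5 (2.2 of 2.8 kb). The lncRNA record 4930578L24Rik has an end at -0.1 kb, inside the same run, so the map cannot assign the run to either record. The body beyond 5 kb was 37.5% in states 7 and 8 and 43.8% in states 16 and 17. A state 13 segment of 2.6 kb lay within the gene from 44.4 to 47.0 kb, beside 0.4 kb of state 11. States 12 and 13 covered 2.39% of the locus, the highest of the 10, against 0.423% of the map. States 9 and 11 formed a block from 77.2 to 81.4 kb beyond the far end. State 1 was at 0 segments.

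The inhibitory Smads had the longest and the shortest start run of the 10. Smad7 lay on chromosome 18 from 75367365 to 75395935. The run at its lower end went from -1.8 to 6.8 kb in 14 segments, with all of states 3, 4, 5 and 6. Past a 0.4 kb gap in state 8, states 3 to 6 returned from 7.2 to 8.0 kb and, beyond states 8 and 7, from 9.6 to 11.8 kb. In all they covered 11.6 kb, or 16.9% of the locus, percentile 96.2 of all genes and percentile 93.5 of genes with a start run. Unlike at Tgfb1, no protein-coding neighbour lay within 20 kb. The lncRNA record Gm20544 has an end at -0.3 kb, within the run. Bridging gaps of up to 1 kb lengthened the Smad7 run to 9.8 kb and left the other 9 as they were.

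Smad6 lay on chromosome 9 from 63953076 to 64022085 on the minus strand, 195.1 kb from Smad3. Its start run was the shortest, from -1.1 to 0.7 kb. It ran into a state 9 segment of 1.6 kb, from 0.7 to 2.3 kb, after which states 3 to 6 resumed from 2.3 to 5.3 kb, now mostly as states 5 and 3. A start run that touches state 9 was seen in 1 of the 10 genes and in 2.38% of genes with a start run. States 9 to 11 were found in the locus only there (1.47%). States 7 and 8 took up 8.01% of its body beyond 5 kb, the lowest of the 10. Their share of the locus was 5.32%, percentile 44.1 of all genes and percentile 13.4 of genes with a start run. Over the whole locus states 16 and 17 reached 79.9%, percentile 98.2 of all genes. The inhibitory pair thus differed in the length of the start run (8.6 and 1.8 kb) and in the share of states 7 and 8 in the body beyond 5 kb (50.6% in Smad7).

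**Figure D2:**
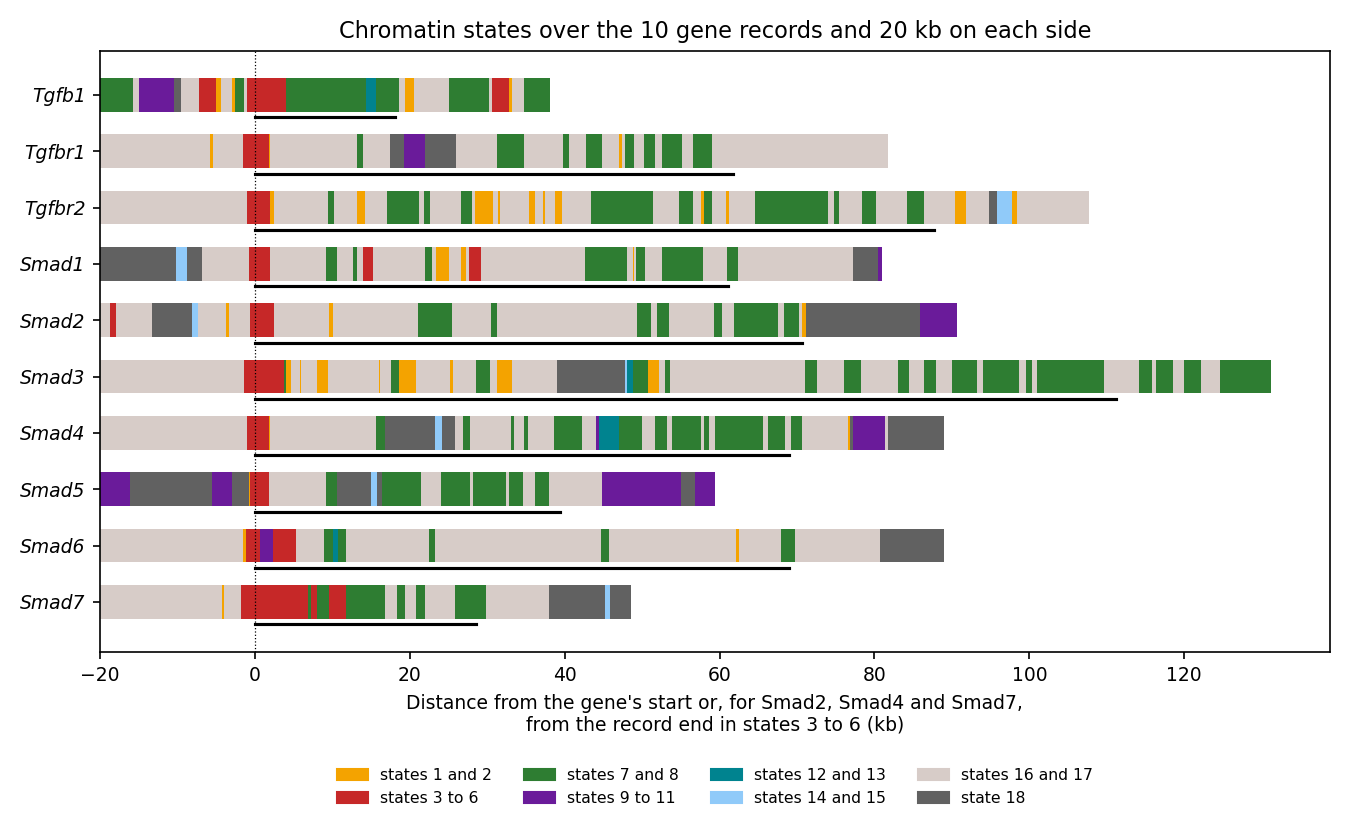
States in 8 groups (colours) over each gene record (black line) and 20 kb on each side, by distance in kb from the start. Smad7 and Tgfb1 have the largest red share, 16.9 and 16.2% of the locus; states 1 and 2 recur inside Tgfbr2 and Smad3, and states 9 to 11 flank Smad5.

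Across the 10 loci, states 16 and 17 were the main background. They covered 56.2% of the pooled bases, with a lowest value of 21.0% (Tgfb1), a median of 56.5% and a highest value of 79.9% (Smad6). They covered 29.9% of the loci of all protein-coding genes and 18.3% of the map. Their median in genes with a start in states 3 to 6 was 42.7%. State 18, which covered 37.1% of the loci of all genes, covered 10.3% of the 10 loci. Its share was lower than the all-gene median of 26.4% in all 10, from 0.783% in Tgfbr2 to 24.7% in Smad5. Genes with a start in states 3 to 6 had a median of 12.5%, and 5 of the 10 genes were above it. Any state 18 was present in 10 of the 10 loci and in 84.0% of the loci of all genes.

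States 3 to 6 covered 5.14% of the pooled loci, against 3.11% over the loci of all genes. The median of the 10 was 3.53%, below the 5.41% of genes with a start in states 3 to 6, and 6 of the start runs were at least 3 kb long. These shares are relative to the length of the locus. Smad3 had a start run of 5.2 kb in a locus of 151.2 kb, and Tgfb1 had 5.0 kb in 58.1 kb. Tgfb1 and Smad7 stood apart at 16.2 and 16.9%, and the other 8 loci lay between 2.35 and 5.54%. States 7 and 8 covered 20.9% (12.9% over all genes), from 5.32% in Smad6 to 47.0% in Tgfb1. Their median in the 10 was 21.0%, below the 23.0% of genes with a start in states 3 to 6. States 9 to 11 covered 3.75%, compared with 12.0% over all genes, and were present in 7 of the 10 loci and in 60.1% of all. Their median in the 10 was 2.11%, above the 0.0% of genes with a start in states 3 to 6. Tgfbr2, Smad3 and Smad7 had 0.0 kb of states 9 to 11. With 5 kb on each side in place of 20 kb the share was 0.948%, and 3 of their 11 stretches, in Tgfbr1, Smad4 and Smad6, lay in the gene's own record.

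State 1 was present in 7 of the 10 loci, against 34.0% of all genes and 50.7% of genes with a start in states 3 to 6. Presence was not adjusted for the length of the locus. Per 10 kb of locus, the median number of state 1 segments was 0.095 in the 10. It was 0.039 in genes with a start in states 3 to 6 and 0.0 in all genes. The counts were 7 segments in Tgfbr2, 6 in Smad3, 4 in Tgfb1, 3 in Smad1, 1 in Tgfbr1, Smad2 and Smad6 each, and 0 in Smad4, Smad5 and Smad7. The 4 genes with 3 or more had between 0.297 and 0.689 state 1 segments per 10 kb of locus, at percentiles 90.9 to 98.6. The state 1 segments of Tgfb1 lay outside its record, whereas most of those of Tgfbr2 and Smad3 lay inside. In all, states 1 and 2 formed 38 stretches in the 10 loci, 25 of them in the gene's own record, and 2 lay within 1 kb of another gene's start.

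**Figure D3:**
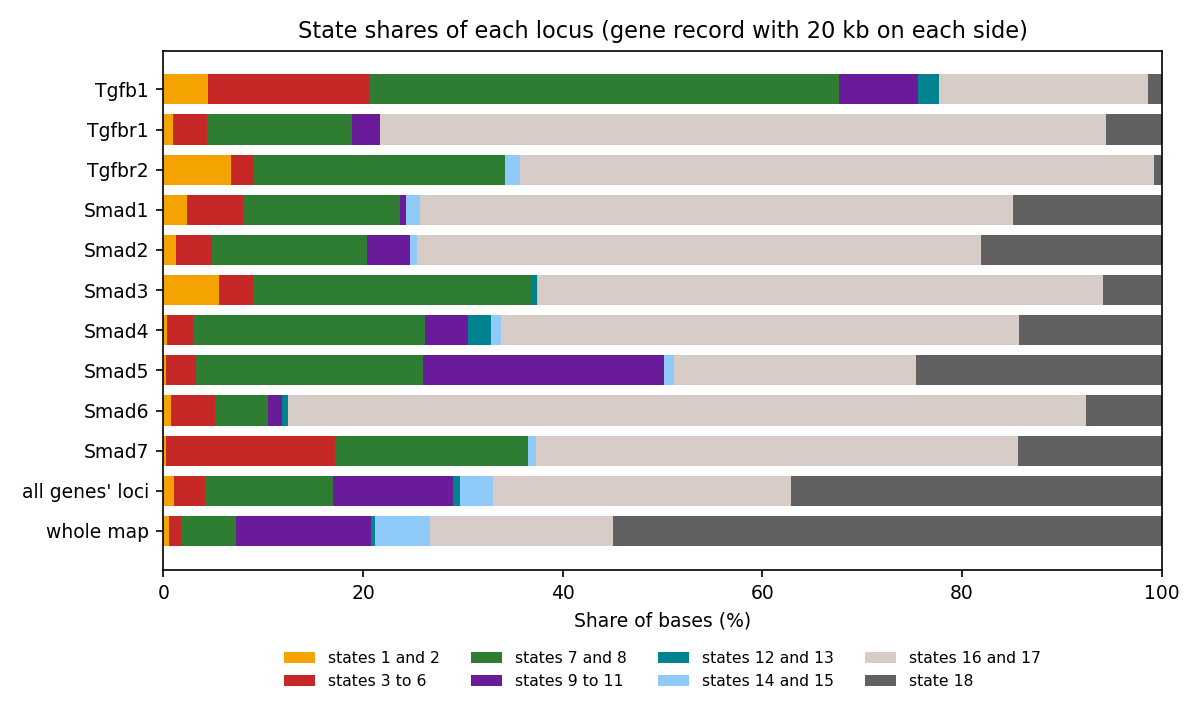
Share of bases (x axis, %) in 8 groups of states for the locus of each gene, the pooled loci of all protein-coding genes and the whole map. State 18 takes 10.3% of the 10 loci together, against 37.1% of the loci of all genes and 55.0% of the map. Smad5 alone has a large share of states 9 to 11, at 24.2%.

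Likeness of the loci was measured as the share of bases that would have to change state for the 18 state shares of 2 loci to match. The closest pairs among the 10 were Smad2 with Smad4 (11.8%), Smad6 with Tgfbr1 (12.5%) and Smad3 with Tgfbr2 (13.1%). Tgfb1 and Smad6 were furthest apart, at 69.5%. Tgfbr1 was nearest to Abi1 and Mboat2 over all protein-coding genes (5.02 and 5.19%), Tgfbr2 to Mink1 and Sapcd1 (6.09 and 6.91%), and Tgfb1 to Gba2 and Gnl1 (19.2 and 21.4%). Smad1 was nearest to Creg1 and Pdlim1, Smad2 to Rmnd5a and Emsy, Smad3 to Rreb1 and Mrps31, and Smad4 to Zfp326 and Ift80. Smad5 was nearest to Eif4e2 and Zfp871, Smad6 to 1700056E22Rik and Tle4, and Smad7 to Rps26 and Ubald1 (10.1 and 10.4%). The median distance to all genes lay between 42.3% (Smad4) and 71.3% (Tgfb1), and each figure describes 18 shares from 1 map.

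The rest of the pathway was read from lists of 83 further genes, of which 42 (50.6%) had a start in states 3 to 6, near the 49.3% of all genes. The counts differed between the lists, and these differences were not tested. Inside the cell, 19 of 20 Smad partners and regulators had a start in states 3 to 6. Smad9, the third BMP-branch Smad, had its start in state 6 with a run of 1.0 kb. The repressor genes Ski and Skil, whose products hold Smad complexes inactive, had runs of 6.4 and 8.8 kb. The ubiquitin ligase gene Smurf1 had a run of 2.6 kb. Nedd4l, which encodes another ubiquitin ligase, was the exception, with record ends in states 17 and 18. The run of Skil was thus 0.2 kb longer than that of Smad7.

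Of 12 receptors besides Tgfbr1 and Tgfbr2, 10 had a table start. A start in states 3 to 6 was seen in 8 of the 12 (66.7%), against 49.3% of all genes. The 8 included the co-receptor gene Tgfbr3 (run of 2.2 kb) and the type I receptor genes Acvr1 (2.8 kb), Acvr1b (3.4 kb) and Acvr1c (2.2 kb). The BMP receptor gene Bmpr1a had its start in state 9, and Bmpr1b in state 18. Acvrl1, a type I receptor gene of endothelium, had record ends in states 10 and 2, and Amhr2, which encodes the receptor for anti-Müllerian hormone, had its start in state 17.

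The secreted parts of the pathway lay mostly elsewhere. Of 17 other ligand genes of the family, 2 had a start in states 3 to 6 and 10 in states 9 to 11, against 20.1% of all genes. A table start was known for only 10 of the 17, against 80.3% of all genes. For the others either record end could count, so the 2 shares are not fully alike. Tgfb2, Bmp4 and Bmp6 had starts in state 9, and Bmp2 had record ends in states 9 and 18. Tgfb3, a close relative of Tgfb1, had 1 record end in state 3 with a run of 1.8 kb and the other in state 18, and Inhba, an activin subunit gene, had its start in state 4 with a run of 1.2 kb. Gdf15 had its start in state 16, Gdf3 had ends in states 17 and 16, and Mstn, the myostatin gene, had its start in state 18. Tgfb1 and its nearest relatives thus differed in the map, with runs of 5.0 kb in Tgfb1 and 1.8 kb in Tgfb3 and none in Tgfb2. Of 8 extracellular antagonists, 5 of them with a table start, 6 had a start in states 9 to 11. Among these, Chrd had its start in state 9 and Grem1 in state 11, while Nog had ends in states 10 and 9 and Fst in states 11 and 9. Twsg1 had its start in state 6, and Cer1 in state 18.

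Genes for storing and activating TGF-beta were split, with 4 of 11 in states 3 to 6 and 4 in states 9 to 11. Each count was 36.4% of the list, against 49.3% and 20.1% of all genes, and 9 of the 11 had a table start. Nrros, which anchors latent TGF-beta on myeloid cells, had its start in state 6 with a run of 3.0 kb. Itgav, which encodes the integrin subunit alpha V, had its start in state 4 (run of 5.4 kb), Ltbp3 in state 6 (3.0 kb), and Thbs1 had 1 record end in state 6 (2.8 kb). Ltbp1, Ltbp2 and the integrin gene Itgb8 had starts in state 9, and Ltbp4 in state 11. Itgb6 and Furin, the latter the gene of a protease that processes the TGF-beta precursor, had starts in state 18, and Lrrc32 had ends in states 17 and 18. Furin's locus was nevertheless 18.5% in states 3 to 6.

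Of 16 target genes, 9 (56.2%) had a start in states 3 to 6 and 5 (31.2%) in states 9 to 11. The shares of all genes were 49.3% and 20.1%. A table start was known for 10 of the 16, against 80.3% of all genes. For the others either record end could count. The cyclin-dependent kinase inhibitor genes differed: Cdkn1b had its start in state 6 with a run of 5.6 kb, Cdkn1a in state 17, Cdkn2b in state 9, and Cdkn1c had ends in states 11 and 9. Only the most upstream table start was read, and the locus of Cdkn1a was nevertheless 8.04% in states 3 to 6. Id2, which encodes an inhibitor of helix-loop-helix factors, had its start in state 3 (run of 2.4 kb). The AP-1 subunit gene Junb had it in state 4 (6.8 kb) and the matrix protein gene Tgfbi in state 6 (1.6 kb). Membership of a list was not chosen on the state, but the lists were drawn up with earlier results of this map known.

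**Figure D4:**
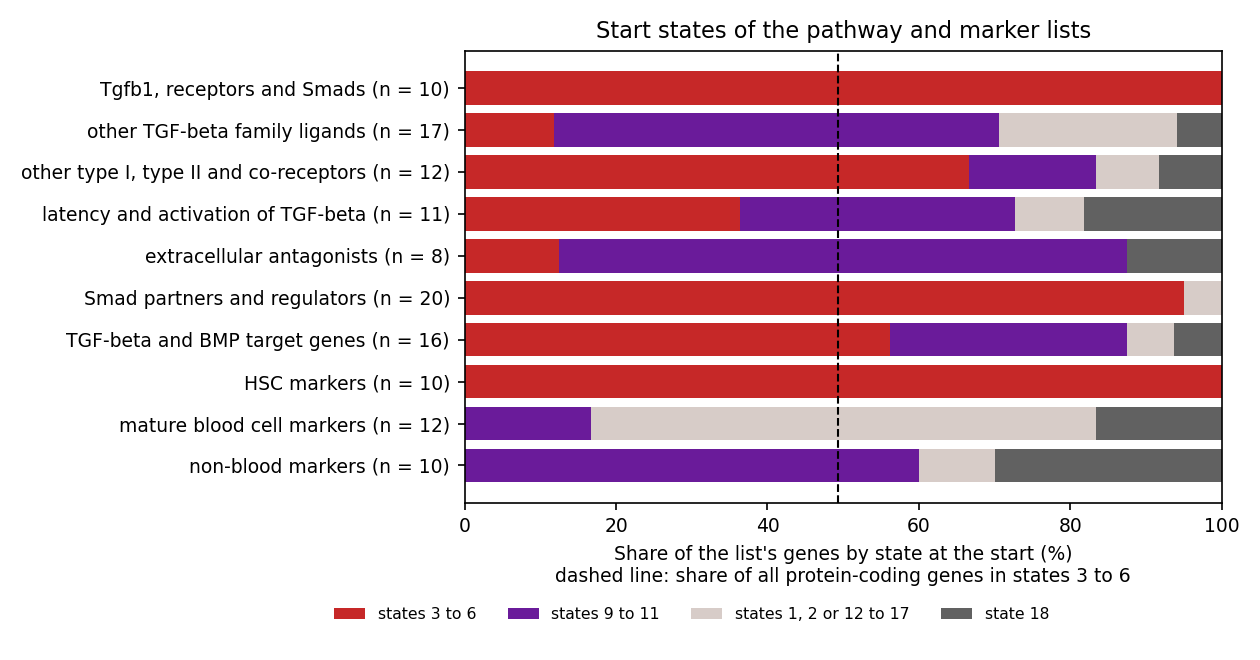
Share of each list's genes (x axis, %) by the state at the start, for the 10 genes, 6 other pathway lists and 3 marker lists; the dashed line is the 49.3% of all protein-coding genes in states 3 to 6. All 10 genes and 19 of 20 Smad partners are in states 3 to 6, while 10 of 17 other ligands and 6 of 8 antagonists are in states 9 to 11.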

How the data were processed

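Per the labels' protocols, chromatin of sorted HSCs was cut with micrococcal nuclease and precipitated with an antibody to H3.3. Bowtie2, deepTools, MACS2, HOMER and the build mm10 are named, per the submitters' processing notes. Per the file headers, the deposited map was emission ordered; which tracks entered it and its emission values were not given in the sources used here. The deposited unit is a state number, with no counts or signal, so depth is unknown. The authors' dense file was used, and the expanded file was an alternative.

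Segments were placed in bins of 200 bp and clipped at the edges of each locus. Of 21900 protein-coding genes in the RefSeq table (GRCm38.p6), 108 starting in the first 3 Mb and 13 off the map were left out. Where only record ends were known, a gene was counted in states 3 to 6 if either end was, then in states 9 to 11, 7 and 8, other states, and 18. Percentiles give the share of genes with a lower value. Base shares, starts and runs were tested on simulated data with planted answers. Python 3.11.15, numpy 2.4.6 and pandas 2.3.3 were used.

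The 10 genes, the pathway and marker lists and the grouping of states were chosen with earlier results of these data known. Named genes were the 10; of each list, the first 4 in its most frequent start class and the first 2 in each other; the 2 loci nearest to each gene in composition; and protein-coding neighbours within 20 kb. Noncoding records and single segments were named after their values were seen. One list gene that this rule would name is not reported here.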

Additional observations from a re-analysis of the deposited data

How the results depend on the processing

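The count of 10 genes with a start in states 3 to 6 was the same with the expanded file, without segments of 1 bin, with any bin within 1 kb of the start, and with either record end; it was 7 of 7 when only genes in the promoter table were counted, an alternative chosen after seeing the data. The count of 42 of 83 further pathway genes ranged from 41 to 49 under the first 4 of these and was 32 of 57 under the last. The last stands against 50.3% of genes in that table. The share of all genes without segments of 1 bin, within 1 kb of the start or with either record end is not given here. The expanded file gave the same base shares. Some other settings, 16 in all, moved a share beyond the 95% binomial (Wilson) interval over bins. That interval covers counting only and treats neighbouring bins as independent, although a segment can span many bins. For states 3 to 6 (5.14%) the share was 4.52% without segments of 1 bin, 6.56% with 5 kb and 4.2% with 50 kb on each side, and 6.14% with each gene weighted equally. For states 9 to 11 (3.75%) it was 0.948% with 5 kb and 5.34% with 50 kb on each side, 4.54% with equal weights, 4.41% without the longest locus (Smad3) and 2.74% without bases within 2 kb of another protein-coding record. For state 18 (10.3%) it was 4.8% with 5 kb, 17.7% with 50 kb and 15.5% with segments kept whole. For states 7 and 8 (20.9%) it was 26.3% with 5 kb, 16.9% with 50 kb, 19.6% without the longest locus and 19.7% away from other records. Each window holds the whole gene record, and only the length of the flanks differed; the cause of the changes was not tested. Replicates could not be left out, since the map has none. No paired analysis was possible because the map has no column for a replicate or a genotype.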
